A study of Homo sapiens with 2 samples.

Results

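Levels of 10 genes of the circadian clock and of its output branch were compared in the human gastric cancer line HGC-27 with and without knockdown of the RNA helicase DDX5. The genes were taken by name, as the rows whose Entrez gene number maps to PER1, PER2, PER3, CRY1, CRY2, NR1D1, NR1D2, DBP, TEF and CLOCK, and all 10 were found among the 16021 rows of the expression table. Both groups were the same cell line transduced with lentivirus and selected with puromycin, which was added after 48 h. Cells were collected after 1 week of selection. The control group carried a non-targeting shRNA and the other group an shRNA against DDX5. RNA sequencing gave 1 library per group, so that no test, standard error or replicate check could be had, and every difference below is a difference between 2 libraries. The labels name no second shRNA against DDX5 and no rescue. The sources used here give neither the time of day of collection nor any synchronisation of the cells.

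The circadian clock is a feedback loop of transcription that runs in most tissues, the stomach included. The proteins CLOCK and BMAL1 pair and bind E-box sequences, and switch on the PER and CRY genes, whose proteins then hold CLOCK and BMAL1 back. A side loop sets BMAL1 itself: the REV-ERB nuclear receptors, encoded by NR1D1 and NR1D2, repress it through ROR elements, and the ROR receptors activate it through the same elements. The PAR bZIP factors DBP, TEF and HLF carry the rhythm to other genes through D-box sequences, where the related repressor NFIL3 competes with them. DDX5 protein, with the helicase DHX9, has been described as part of PER protein complexes, which is background and was not measured here. In a culture that has not been synchronised, cells stand at different phases, and a bulk RNA level averages over them.

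These sequence elements were looked for in RefSeq promoter windows of build GRCh38.p14, which run from 250 bases before to 50 bases after each annotated start. All 10 genes matched, 5 of them with 1 window and 5 with 2. The E-box was searched as CACGTG and its weaker variant as CACGTT, the D-box as TTATGTAA or TTACGTAA, and the core of the ROR element as TAGGTCA, on both strands. No matches overlapped in the genes shown. At least 1 E-box or variant lay in the windows of 8 of the 10 genes, all except PER3 and DBP, against 14.5% of 27305 genes with a window. A D-box lay in those of PER2, PER3 and NR1D2, against 1.27% of the same 27305 genes. That background was not limited to genes expressed here, and the 10 genes include known targets of clock factors. The contrast therefore adds no evidence. The stretches below are shown because they carry letters of the kind through which clock factors are known to act. They are only some of the matches: the E-box variants of CRY1, CRY2, NR1D1 and CLOCK and another TEF E-box are not printed. Matches are in capitals, and each stretch is written 5′ to 3′ along the gene's strand.
PER1 E-box: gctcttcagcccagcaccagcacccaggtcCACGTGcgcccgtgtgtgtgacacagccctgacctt
PER2 E-box variant: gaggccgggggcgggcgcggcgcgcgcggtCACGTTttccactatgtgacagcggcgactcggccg
PER2 D-box: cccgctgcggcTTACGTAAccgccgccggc
PER3 D-box: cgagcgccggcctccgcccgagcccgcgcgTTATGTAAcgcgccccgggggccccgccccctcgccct
NR1D2 D-box and E-boxes: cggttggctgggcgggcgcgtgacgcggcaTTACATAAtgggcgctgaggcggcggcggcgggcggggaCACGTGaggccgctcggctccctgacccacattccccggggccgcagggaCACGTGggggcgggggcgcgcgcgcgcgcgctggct
TEF E-box: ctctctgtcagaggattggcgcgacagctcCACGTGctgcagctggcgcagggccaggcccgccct

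The PER1 stretch lies at chr17:8152542-8152607 on the minus strand, with its E-box 173 bases before the annotated start. The first PER2 stretch lies at chr2:238288772-238288837 on the minus strand with its match 197 bases before the start, and the second at chr2:238288595-238288624, where the D-box begins 3 bases before the start and runs into the first exon. The PER3 D-box lies 177 bases before the start, within chr1:7784084-7784151 on the plus strand. NR1D2 holds a D-box, read on the opposite strand, and 2 E-boxes, from 194 to 105 bases before its downstream start, within chr3:23945897-23946051 on the plus strand. The TEF E-box shown lies 195 bases before the upstream start, within chr22:41367230-41367295 on the plus strand. Apart from the second PER2 stretch, none of these overlaps an annotated GENCODE exon. A match is a description of the letters, and binding was not measured in these cells. DBP had none of the searched elements in its window, which says nothing about elements elsewhere in the gene.

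DDX5 was listed with 170.5 FPKM (fragments per length of transcript and sequencing depth) under the non-targeting shRNA and with 50.78 FPKM under its own shRNA, 29.8% of the control level. This is a log2 ratio of -1.73, taken here and below as DDX5 shRNA over non-targeting shRNA on FPKM + 1. Its paralog DDX17 stood at 74.58 and 100.21 FPKM. Counts over all genes use the 11413 genes that averaged 1 FPKM or more across the pair of libraries, whose median log2 ratio was 0.02 and whose 10th and 90th percentiles were -0.59 and 0.69. The library depth, estimated from the steps between low FPKM values, was about 1.44e+07 fragments for the control and 1.49e+07 for the DDX5 shRNA library. Of 8 epithelial markers, 7 were listed and 4 lay under 1 FPKM in both libraries. Among these were EPCAM at 0.04 and 0.39 and CDH1 at 0.36 and 0.07 FPKM. MUC1 (6.12 and 7.41 FPKM) and KRT7 (1.07 and 1.35 FPKM) were expressed in both libraries and were higher with the DDX5 shRNA. Epithelial character was thus weak in these markers, though not wholly absent. The epithelial markers summed to 13.52 and 10.97 FPKM, with KRT8 (5.24 and 1.31 FPKM) the 1 marker 2-fold lower. The 5 fibroblast markers were all expressed, with sums of 475.7 and 534.9 FPKM. DCN was 2-fold higher with the DDX5 shRNA (68.13 and 140.68 FPKM). COL1A2 (2.52 and 6.02 FPKM) was 2.39-fold higher on FPKM and just under 2-fold on FPKM + 1. LUM (111.96 and 120.49 FPKM) was slightly higher, and COL1A1 (285.04 and 260.5 FPKM) and PDGFRA (8.09 and 7.17 FPKM) slightly lower. The 4 mesenchymal markers summed to 1602 and 1294 FPKM, nearly all of it VIM at 1583.62 and 1270.59 FPKM. FN1 (4.76 and 5.99 FPKM) and ZEB1 (14.0 and 17.13 FPKM) were slightly higher with the DDX5 shRNA. CDH2 (0.07 and 0.0 FPKM) was hardly detected. The listed leukocyte markers summed to 1.98 and 2.06 FPKM, and the endothelial markers to 0.02 and 0.05 FPKM. The part of these markers in the results below was not tested, and in bulk RNA fewer cells of a type cannot be told apart from less RNA per cell.

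All 10 clock and PAR bZIP genes were expressed above 1 FPKM in each library. In the non-targeting library their order from high to low was DBP, PER3, NR1D2, CRY1, NR1D1, PER1, CLOCK, TEF, CRY2 and PER2. The first 4 places and the last were held by the same genes in the DDX5 shRNA library. TEF moved from rank 8 to rank 5 there and CLOCK from rank 7 to rank 9. NR1D1, PER1 and CLOCK lay so close together in the control, between 5.56 and 5.79 FPKM, that their order cannot be told without replicates. The levels corresponded to about 150 fragments (PER2) to 1300 (PER3) in the control and about 230 (NR1D1) to 1900 (PER3) in the other, approximate numbers from the estimated depth and transcript lengths. The plot of levels shows PER2, PER3, CRY2, NR1D2, DBP and TEF higher with the DDX5 shRNA, PER1 and CLOCK lower, and CRY1 and NR1D1 almost level.

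**Figure D1:**
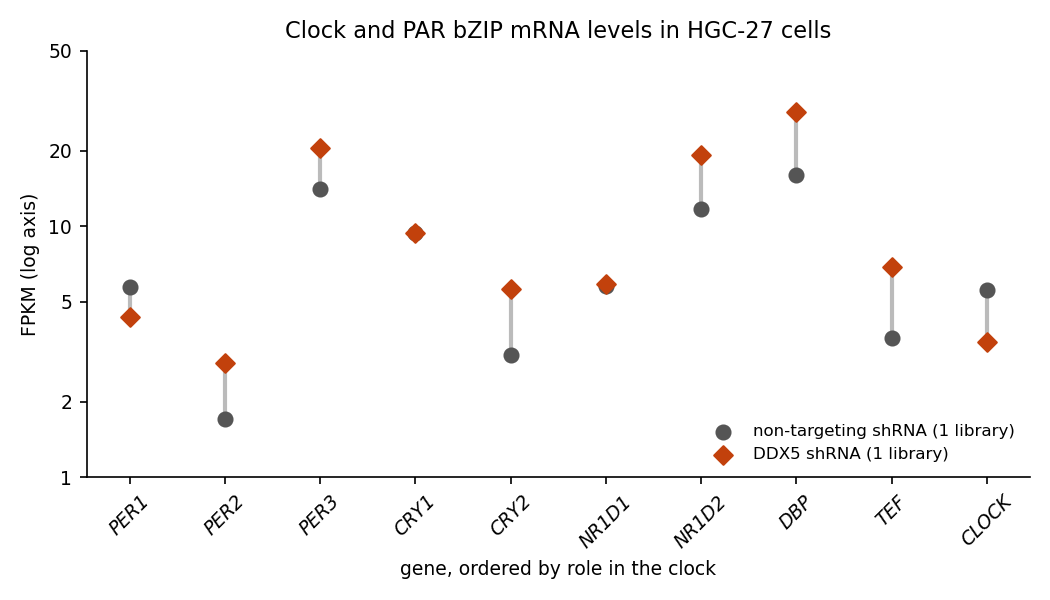
FPKM (log axis) of the 10 genes in the non-targeting library (grey circles) and the DDX5 shRNA library (orange diamonds), with 1 library per group and no error bars. DBP is highest in both, at 16.06 and 28.47 FPKM, and PER2 lowest, at 1.71 and 2.86 FPKM.

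Among the period genes, which encode the repressors that gate the loop, PER1 went one way and PER2 and PER3 the other. PER1, the member that answers fastest to outside signals, was at 5.72 FPKM in the control and 4.33 FPKM with the DDX5 shRNA, a log2 ratio of -0.33. PER2, whose loss shortens or abolishes rhythms in mice, stood at 1.71 and 2.86 FPKM, with a log2 ratio of 0.51. PER3, the member least needed for the core rhythm, stood at 14.03 and 20.55 FPKM, with a log2 ratio of 0.52. It was the most abundant period transcript in both libraries and made up 65.4% and 74.1% of the summed PER level, while the share of PER1 was 26.7% and 15.6%. The 3 genes together summed to 21.46 and 27.74 FPKM. For PER3, 17.7% of the 50-base windows of its longest transcript lie opposite transcripts of UTS2 and Z98884.1, and without a stated strand setting reads from both strands cannot be told apart. No such overlap was found for PER1, and for PER2 3.47% of windows matched, in reverse, transcripts of many unrelated genes. On the same strand, 1.26% of PER2 windows matched transcripts of other genes, which no strand setting would separate.

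The cryptochromes are the stronger repressors of CLOCK and BMAL1, and the less abundant of the pair held the larger difference. CRY1, which sustains the late repressive phase, was at 9.44 and 9.37 FPKM, with a log2 ratio of -0.01. CRY2, which competes with CRY1 and lengthens the loop when it is lost, was at 3.08 and 5.62 FPKM, 1.82-fold higher on FPKM and a log2 ratio of 0.70. CRY1 remained the more abundant transcript, and its share of the summed CRY level was 75.4% in the control and 62.5% with the DDX5 shRNA. The E-box variant lay in the windows of both genes.

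The REV-ERB pair showed the same split between an even and a higher paralog. NR1D1, encoding REV-ERB alpha, stood at 5.79 and 5.86 FPKM, with a log2 ratio of 0.01 that became -0.08 when both libraries were scaled to the same total and -0.01 when centred on the median or on a trimmed mean. NR1D2, encoding REV-ERB beta, stood at 11.67 and 19.22 FPKM, 1.65-fold higher with the DDX5 shRNA and a log2 ratio of 0.67. NR1D2 was the more abundant of the pair in both libraries, with 66.8% and 76.6% of their summed level. The 3′ end of NR1D1 overlaps THRA, the thyroid hormone receptor alpha gene on the opposite strand, over 8.06% of its windows. THRA stood at 23.71 and 34.76 FPKM, and its part in the NR1D1 value was not tested.

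The PAR bZIP activators DBP and TEF both stood higher with the DDX5 shRNA. Theirs were the highest log2 ratios of the 10 genes on FPKM + 1, an order that changed with the pseudocount: CRY2 (0.85) stood above DBP (0.82) at 0.1 FPKM, and NR1D2 (0.54) above TEF (0.46) at 5 FPKM. DBP, the member whose mRNA swings most through the day in tissues, stood at 16.06 and 28.47 FPKM, 1.77-fold higher and a log2 ratio of 0.79. TEF stood at 3.60 and 6.87 FPKM, 1.91-fold higher and a log2 ratio of 0.77. The third PAR bZIP gene, HLF, stood at 6.50 and 7.31 FPKM, with a log2 ratio of 0.15 (0.05 at the same total). DBP, TEF and HLF together summed to 26.16 and 42.65 FPKM. DBP overlaps SPHK2 on the opposite strand over 25.2% of its windows, and SPHK2, a sphingosine kinase gene, stood at 6.50 and 7.76 FPKM. No overlap was found for TEF.

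CLOCK was the lowest of the 10 log2 ratios. It encodes the activator that pairs with BMAL1, and was at 5.56 FPKM in the control and 3.46 FPKM with the DDX5 shRNA, 62.2% of the control, with a log2 ratio of -0.56. NPAS2, the paralog that can take its place, stood at 1.89 and 1.46 FPKM, so CLOCK and NPAS2 together summed to 7.45 and 4.92 FPKM. For NPAS2, 14.1% of windows lie opposite transcripts of AC016738.1, whose part in the NPAS2 value was not tested. The partner BMAL1 stood on the other side, at 2.52 and 7.36 FPKM, 2.92-fold higher and a log2 ratio of 1.25, which was 0.72 with a pseudocount of 5 FPKM. These BMAL1 levels corresponded to only about 97 and 290 fragments. BMAL2, the paralog of BMAL1, was at 1.67 and 1.65 FPKM. On the activator side of the loop the library with the DDX5 shRNA thus held less CLOCK and more BMAL1 mRNA.

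None of the 10 genes was 2-fold apart on FPKM + 1, a mark that 6.45% of all genes passed, 4.19% upward and 2.26% downward. A smaller step of 0.5 on the log2 scale, chosen after the values were seen, was passed upward by 6 of the 10 genes (PER2, PER3, CRY2, NR1D2, DBP and TEF), and by 16.8% of all genes. PER2 (0.51) and PER3 (0.52) lay just past it. The upward count was 4 of 10 at the same total (12.5% of all genes) and with either centring (15.6% and 15.5%), and 2 of 10 (NR1D2 and DBP) with a pseudocount of 5 FPKM (9.2% of all genes). It was passed downward by CLOCK, 1 of 10, and by 13.4% of all genes, and by none of the 10 with a pseudocount of 5 FPKM. The median log2 ratio of the 10 genes was 0.52 (0.31 with a pseudocount of 5 FPKM), beside 0.02 over all genes, and 7 were above 0 (6 at the same total or with either centring), beside 52% of all genes. DBP lay at percentile 92.3 of all log2 ratios, TEF at 92.1, CRY2 at 90.2, NR1D2 at 89.6, PER3 at 84.2 and PER2 at 83.7. At the other end CLOCK lay at percentile 11.1 and PER1 at 21.9. Scaling to the same total moved the median of all genes from 0.024 to -0.078, and the 6 higher genes then had log2 ratios between 0.41 (PER3) and 0.68 (DBP and TEF). The spread between cultures was not measured, so these places describe this pair of libraries. The 10 genes and the lists below were chosen with earlier results of these data known. Contrasts of either with all genes therefore add no evidence.

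**Figure D2:**
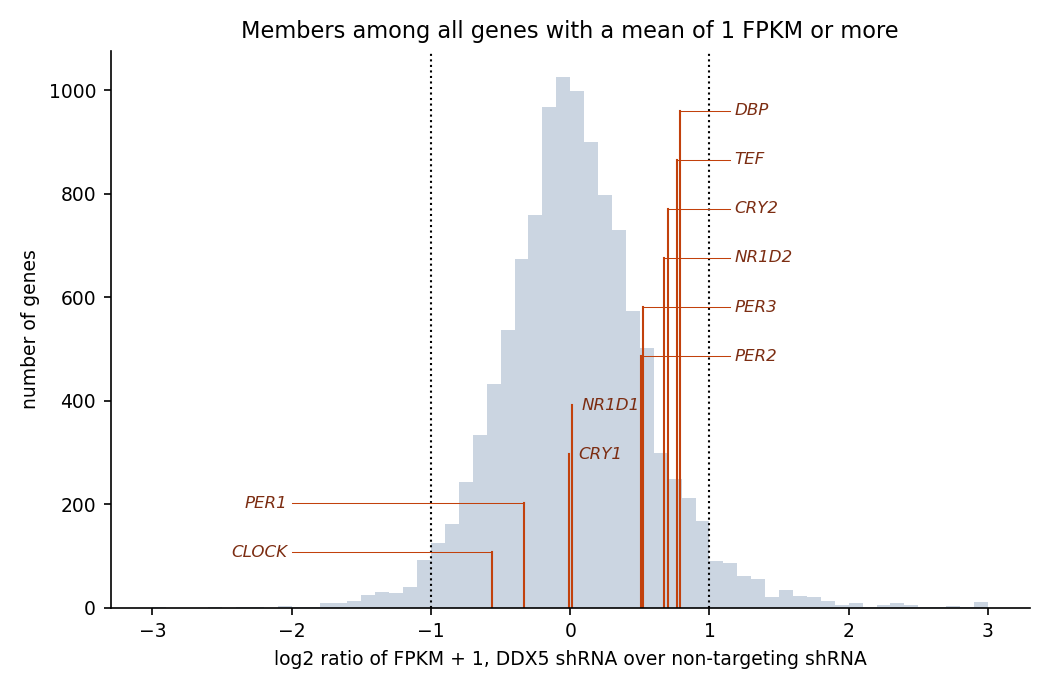
Histogram of log2 ratios of FPKM + 1, DDX5 shRNA over non-targeting shRNA, for 11413 genes, with a line at each of the 10 members (line height has no meaning) and dotted lines at 2-fold. The end bins also hold genes beyond the axis. All 10 members lie between the dotted lines, from CLOCK at -0.56 to DBP at 0.79.

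Ratios between genes of the same library do not depend on how the libraries were scaled to each other. The pairs were paralogs or known partners and were chosen with the values known. BMAL1 over CLOCK was 0.453 in the control and 2.13 with the DDX5 shRNA, so that the less abundant partner in the control was the more abundant with the DDX5 shRNA. PER2 over PER1 was 0.299 and 0.661, and PER3 over PER1 was 2.45 and 4.75. CRY2 over CRY1 was 0.326 and 0.6, and NR1D2 over NR1D1 was 2.02 and 3.28. NPAS2 over CLOCK, a pair in which both genes stood lower with the DDX5 shRNA, was 0.34 and 0.422. For mRNA of the D-box activators against the D-box repressor, DBP over NFIL3 was 1.95 and 1.13, and TEF over NFIL3 was 0.436 and 0.272. These are ratios of mRNA levels, and neither protein nor binding was measured. Each follows from the levels given above for its genes and adds no separate evidence.

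**Figure D3:**
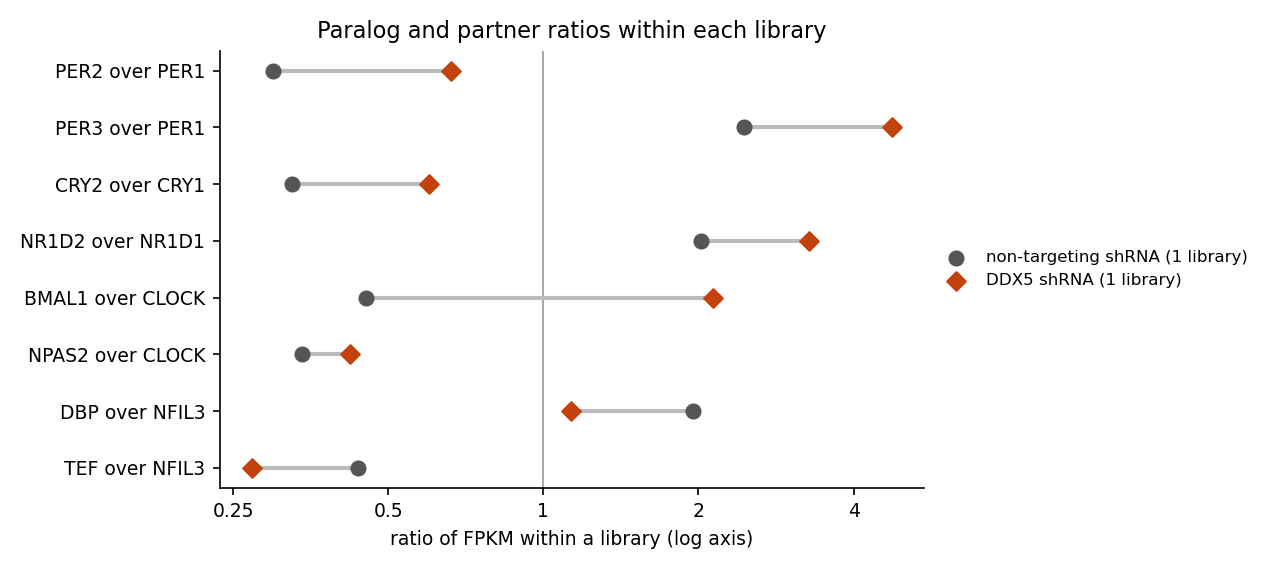
Ratio of FPKM between 2 genes within a library (log axis), for 8 pairs in the non-targeting library (grey circles) and the DDX5 shRNA library (orange diamonds), 1 library each. BMAL1 over CLOCK crosses 1, from 0.453 to 2.13, and both ratios over NFIL3 are lower with the DDX5 shRNA.

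Some other transcription factors of the clock held larger differences than the 10 genes. Of 10 such genes reported here, 7 passed the filter of a mean of 1 FPKM, and 3 of these (BMAL1, NFIL3 and BHLHE41) were past 2-fold upward on FPKM + 1 and 0 downward, with a median log2 ratio of 0.15 over the 7. Over all genes these marks were passed by 4.19% upward and 2.26% downward, and 1 of the 3 (BHLHE41) entered through a single library. NFIL3, the repressor at D-boxes, stood at 8.25 and 25.28 FPKM, 3.06-fold higher and a log2 ratio of 1.51. BHLHE41, a repressor at E-boxes also called DEC2, stood at 0.83 and 3.97 FPKM, about 44 and 220 fragments. It reached the mean of 1 FPKM only through the DDX5 shRNA library and so had to differ to be counted. With a pseudocount of 5 FPKM, NFIL3 alone was 2-fold apart. BHLHE40, the paralog of BHLHE41, stood at 12.02 and 12.39 FPKM, with a log2 ratio of 0.04 that was -0.07 at the same total. RORA, RORB and CIART were under 1 FPKM in both libraries, at 0.03 and 0.08, 0.31 and 0.49, and 0.41 and 0.56 FPKM.

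The core of the ROR element was found at BMAL1 and NFIL3, 2 of the genes just described, and among the 10 members at CRY2. It occurs in the windows of 2.29% of all genes. These short stretches are shown because the REV-ERB and ROR receptors are known to act on such elements. Only the core was searched, so the label of each stretch means the core and not a full element. In the NFIL3 stretch the core reads on the opposite strand.
BMAL1 ROR element: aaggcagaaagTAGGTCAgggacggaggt
NFIL3 ROR element: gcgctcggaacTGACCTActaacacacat
CRY2 ROR element: ttgcggcgtcaTAGGTCActgggcgggct

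The BMAL1 stretch lies at chr11:13277809-13277837 on the plus strand, 31 bases after the annotated start. The NFIL3 stretch lies at chr9:91423824-91423852 on the minus strand, 9 bases before the start, and the CRY2 stretch at chr11:45847399-45847427 on the plus strand, 65 bases before the start of its downstream window. All 3 overlap annotated GENCODE exons, and the coordinates are on GRCh38.p14. Which receptors occupied these sites was not measured.

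Genes for proteins that modify clock proteins or bind PER and CRY showed mostly small mRNA differences, with lower values among those for binding proteins. Of 23 genes for kinases, phosphatases and ubiquitin ligases reported here, 22 passed the filter, 0 were past 2-fold upward and 1 downward (4.19% and 2.26% of all genes), with a median log2 ratio of 0.18. The 1 lower gene was PPP1CC, a catalytic subunit of protein phosphatase 1, at 104.93 and 51.52 FPKM, which was the lowest of the list. The highest was CSNK2A2, a casein kinase 2 subunit, at 26.32 and 40.11 FPKM. CSNK1D and CSNK1E, the kinases that mark PER for degradation, stood at 26.69 and 32.72 and at 33.27 and 41.66 FPKM.

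Of 16 genes for proteins reported to bind PER or CRY, 15 were measured, 13 had a log2 ratio below 0 and 2 were at least 2-fold lower, the targeted DDX5 itself and DHX9, and the median was -0.41. Over all genes, 47.8% were below 0 and 2.26% at least 2-fold lower. When the targeted DDX5 was left out, 12 of 14 were below 0, DHX9 alone was past 2-fold and the median stayed -0.41. DHX9 stood at 141.06 and 60.40 FPKM. SFPQ, a splicing factor that binds NONO, stood at 186.79 and 102.59 FPKM, and NONO at 370.54 and 266.65 FPKM. The histone methyltransferase gene SUV39H1 stood at 9.39 and 5.09 FPKM, and TIMELESS, which also acts at replication forks, at 41.04 and 23.90 FPKM. PRKCA, the protein kinase C alpha gene, had the highest ratio of the list, at 5.66 and 9.18 FPKM. Lower values were not particular to this list. Among genes for other RNA-binding proteins, HNRNPM (log2 ratio -1.23) and PTBP1 (-0.98) were lower with the DDX5 shRNA. HNRNPK (0.04) was almost level and PCBP2 (0.5) was higher. These genes were picked after their values were seen.

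Output genes of the clock had no common direction. Of 12 genes, 11 passed the filter, with 2 past 2-fold upward (4.19% of all genes), 0 downward (2.26%) and a median log2 ratio of 0.00 (-0.10 at the same total). TSC22D3, which is also induced by glucocorticoids, stood at 6.86 and 109.35 FPKM, and CDKN1A, which encodes the cell cycle inhibitor p21, at 3.72 and 11.26 FPKM. CDKN1A was not 2-fold apart with a pseudocount of 5 FPKM (log2 ratio 0.90). WEE1, a mitotic inhibitor kinase gene driven through E-boxes, had the lowest ratio, at 11.59 and 8.79 FPKM. NAMPT, the rate-limiting enzyme of NAD salvage and a target of CLOCK and BMAL1, stood at 34.60 and 28.70 FPKM. Among 15 genes of the pathways that feed into PER transcription, 14 were measured, 0 were 2-fold apart in either direction, and the median was 0.19. CREM, a factor of the cAMP pathway, had the highest ratio at 16.03 and 24.50 FPKM. SIK1, a kinase gene that restrains CREB coactivators, had the lowest at 1.51 and 0.99 FPKM, and it reached the mean of 1 FPKM only through the non-targeting library. The related kinase genes SIK2 (5.53 and 7.74 FPKM) and SIK3 (11.88 and 15.27 FPKM) passed the filter in each library.

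**Figure D4:**
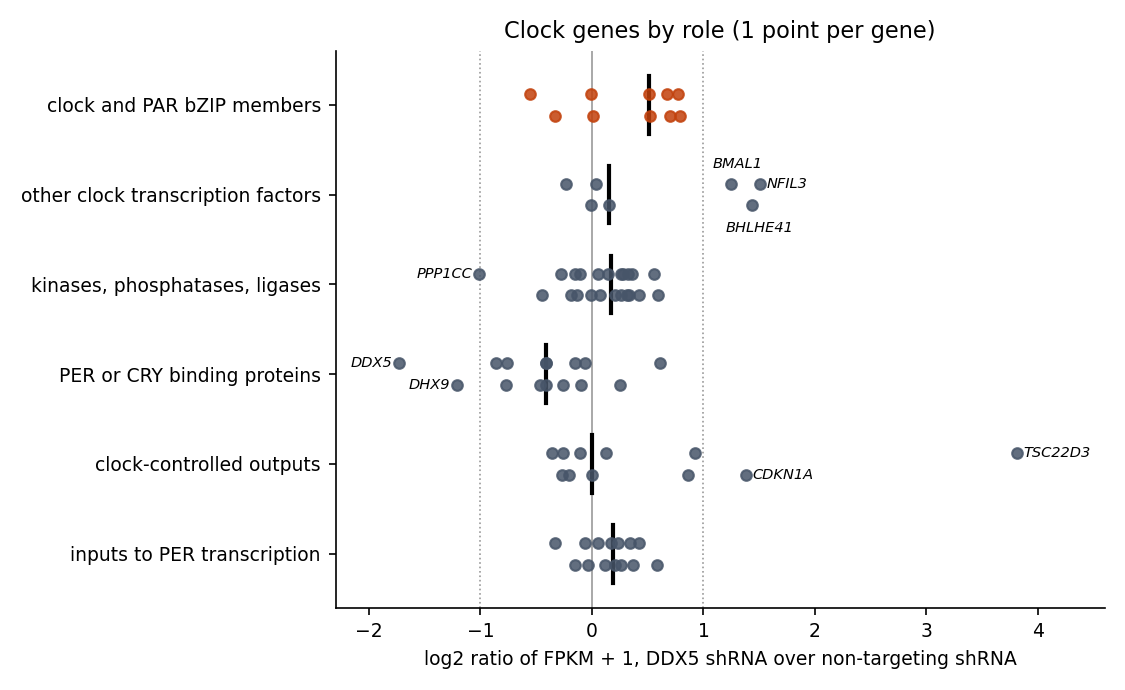
Log2 ratio of FPKM + 1, DDX5 shRNA over non-targeting shRNA, for each gene past the filter in 6 lists, 1 point per gene (vertical offsets only separate points). Black bars are medians and dotted lines mark 2-fold. Median bars lie at 0.52 for the 10 members, 0.15 for the other transcription factors and -0.41 for PER or CRY binding proteins.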

How the data were processed

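RNA was sequenced from HGC-27 cells, 1 library per shRNA. The authors deposited 1 table of FPKM with 1 column per library, per the file headers, and columns were assigned by sample title. Per the submitters' processing notes, RSEM 1.2.8, HISAT and Bowtie2 were used with hg19, in roles not named. Annotation, strand setting and filters were not given in the sources used here. RSEM divides shared reads by estimation, so values of similar genes can trade.

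RefSeq names (GRCh38.p14) matched 15289 of 16021 rows. The log2 ratio of FPKM + 1 was taken, which understates differences of low genes, and 2-fold means a log2 ratio of 1 or -1. No test was possible with a single library in each group. Members and lists were chosen with earlier results of these data known. Named were all members and clock transcription factors, and in each other list the genes 2-fold apart and both extremes. Others were added for their role or after their values were seen. Within the lists these were CSNK1D, CSNK1E, SFPQ, NONO, SUV39H1, TIMELESS, NAMPT, KLF9, KLF10, SIK2 and SIK3. Outside the lists they were HNRNPM, PTBP1, HNRNPK, PCBP2 and neighbours on the genome. Depth came from steps of low FPKM values in 75 and 72 short genes, of which 80% and 72.2% fell within 0.15 of a whole step (30% if evenly spread). The step was chosen for the best fit, so depth is approximate. Overlap used 50-base windows every 10 bases of the longest GENCODE coding transcript. Alternatives were pseudocounts of 0.1 and 5, no filter or a mean of 5 FPKM, scaling to equal totals, and subtracting the median or a mean trimmed by 30% at each end. Some genes of the lists are not reported here. The calculation was tested on simulated data with planted differences larger than those of the members. That checks the arithmetic and not the differences reported here. Python 3.11.15, numpy 2.4.6, pandas 2.3.3 and matplotlib 3.10.9 were used.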

Additional observations from a re-analysis of the deposited data

How the results depend on the processing

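Across 7 alternatives, 316 of 332 recomputed values stayed within the tolerance set for them (the robust SD of log2 ratios of genes at a like level for a single gene, the same scaled to list size for a median, 1.5 times for a count), and 16 did not. That tolerance, 0.43 to 0.49 for the members, is large beside their log2 ratios, which ran from -0.56 to 0.79. Staying within it therefore says little for them. None of the 10 became 2-fold apart in these alternatives, and NR1D1 was the only one whose log2 ratio changed sign. With a pseudocount of 5 FPKM, PER2 went from 0.51 to 0.23, CRY2 from 0.70 to 0.39, TEF from 0.77 to 0.46, CLOCK from -0.56 to -0.32 and PER1 from -0.33 to -0.20. There the median of the members was 0.31, with 1 of the other clock transcription factors at least 2-fold higher, 1 output gene at least 2-fold higher, 0 kinases, phosphatases or ligases at least 2-fold lower, and 194 and 102 of all genes at least 2-fold higher and lower. With a pseudocount of 0.1 FPKM these last counts were 743 and 390. At a mean of 5 FPKM or more, where fewer genes entered, 1 of the other clock transcription factors was at least 2-fold higher. No paired analysis was possible because each group had 1 library, and leaving out a library was not possible for the same reason. Depth limits the low genes most: PER2 rests on about 150 and 270 fragments and BHLHE41 on about 44 and 220. BMAL1 rests on about 97 and 290 fragments, and NPAS2 on about 110 and 84.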

Other observations

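CA11, a carbonic anhydrase-related gene that neighbours DBP on the genome, was at 13.15 FPKM in the control and 34.10 FPKM with the DDX5 shRNA, 2.59-fold higher and a log2 ratio of 1.31, above that of DBP at 0.79. SPHK2, the neighbour on the other side, had a log2 ratio of 0.22. CA11 was chosen after its value was seen, and its part in the DBP value was not tested. Of the Krüppel-like factor genes KLF9 and KLF10, both outputs of the clock, KLF9 stood at 5.37 and 11.08 FPKM and KLF10 at 4.75 and 9.45 FPKM, with log2 ratios of 0.92 and 0.86, close to but under 2-fold on FPKM + 1. Both were chosen from the output list after their values were seen.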
